A study of Mus musculus with 3 samples.

Results

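The genes for mitochondrial ribosomal proteins were followed in peak lists of the forkhead transcription factor Foxp4 and of H3K27ac, the acetylation of histone H3 at lysine 27, in mouse beige adipocytes. Members were all genes whose deposited symbol begins with Mrpl or Mrps and a number, with pseudogenes left out, a rule that uses the name and no score or distance. A gene is named in the lists only where it has a peak, so shares were taken over the 78 annotated genes of the rule. Of 13354 genes named in the lists, 50 were members, namely 30 of the 49 Mrpl genes and 20 of the 29 Mrps genes in the RefSeq annotation. They carried 37 of 16937 Foxp4 peaks and 49 of 17564 H3K27ac peaks. A total of 27 members had a Foxp4 peak, 34 had an H3K27ac peak and 11 had at least 1 of each. The other 28 of the 78 were named in neither list and are counted with the family below.

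The cells were stromal-vascular cells from the inguinal white fat (iWAT) of C57BL/6 mice that had been turned into beige adipocytes in culture. The labels give no genotype beyond the strain, and the sources used here do not give the age or sex of the mice. Cells grew for 3 days in medium with 20% serum. Induction then took 48 h with troglitazone (5 µM), T3 (50 nM), dexamethasone (1 µM), isobutylmethylxanthine (0.5 mM) and insulin (5 µg/ml) in 10% serum. Troglitazone, T3 and insulin stayed in the medium for 6 more days. The series has 1 Foxp4 ChIP library, 1 H3K27ac ChIP library and 1 input DNA library, which was not used here, and all 3 share this treatment. The labels give the same protocol, with an antibody against Foxp4, for all 3 libraries, and name no antibody against H3K27ac. The H3K27ac list is therefore described as its title labels it. Stromal-vascular cells are a mixed population, and in such a bulk culture fewer cells with a peak and a weaker peak per cell cannot be told apart. Without replicates no difference has a replicate check and no test was made. An interval beside a share is the exact 95% interval of Clopper and Pearson, which covers only counting error, and the shares they are set against are those over all protein-coding genes or all peaks.

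Mitochondrial ribosomes sit at the inner mitochondrial membrane and translate the few mRNAs of the mitochondrial genome, all of which encode subunits of the respiratory chain and the ATP synthase. Their RNA comes from the mitochondrial genome, but every one of their proteins is encoded in the nucleus and imported. Mrpl proteins are named for the large subunit, where peptide bonds form, and Mrps proteins for the small subunit, where the codons of the mRNA are read. Many have counterparts in bacteria and others are specific to mitochondria. Beige adipocytes are rich in mitochondria, because they burn fuel for heat. H3K27ac marks active promoters and enhancers, and Foxp4 belongs to the Foxp group of forkhead proteins, which bind DNA through the forkhead domain and mostly repress.

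H3K27ac lay at the promoters of 31 of the 78 mitoribosomal protein genes, which is 39.7% (28.8 to 51.5%), against 26.0% of all protein-coding genes (5470 of 21031). A promoter peak was one whose centre lay within 1000 bp of the deposited transcription start site (TSS). By the authors' promoter-TSS class it was 20.5% (12.2 to 31.2%), against 12.6%, and among only the genes named in a list 62% (47.2 to 75.4%), against 48.4%, and both of these intervals include the background share. By symbol, 19 of 49 Mrpl genes had such a peak (38.8%, 25.2 to 53.8%) and so did 12 of 29 Mrps genes (41.4%, 23.5 to 61.1%). Counting H3K27ac peaks at any distance, 34 members had one (43.6%, 32.4 to 55.3%), against 37.5% of protein-coding genes. In 3 members H3K27ac under their name therefore lay solely away from the promoter. No share over all protein-coding genes was taken for this count.

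By structural class, an H3K27ac promoter peak was found at 10 of 30 large-subunit genes with a bacterial counterpart and at 9 of 20 large-subunit genes specific to mitochondria. In the small subunit the counts were 8 of 17 genes with a bacterial counterpart and 3 of 9 specific to mitochondria. As shares these were 33.3% (17.3 to 52.8%), 45% (23.1 to 68.5%), 47.1% (23.0 to 72.2%) and 33.3% (7.49 to 70.1%) in that order. Of the 4 intervals, which overlap one another, all include the 26.0% of protein-coding genes. Mrps30 was counted with the large subunit, where its protein sits despite its name, and Mrps18a and Mrps36 were counted in no class.

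The strongest H3K27ac promoter peak of the family was at Mrpl27, with a score of 168 that exceeded 99.7% of the peaks in the list. The score is the authors' whole number per peak and is used only within its own list, where 20 is the lowest. Mrpl27 encodes a large-subunit protein whose bacterial counterpart reaches into the peptidyl transferase centre, and its peak (chr11:94653501-94654342) was annotated to the promoter of Eme1, the gene that starts 48 bp away on the other strand. Mrpl53 followed with 100 and Mrpl11 with 94. Mrpl11 is the counterpart of bacterial L11, at the base of the stalk that receives the translation factors, and Mrpl53 is specific to mitochondria.

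Next came Mrps34 at 84, a small-subunit protein specific to mitochondria, Mrpl48 at 79 and Mrpl1 at 74, the protein of the L1 stalk. Mrpl54 had 70, Mrpl51 had 69, Mrps35 had 66 and Mrpl39 had 62. At the other end, Mrpl12 had 23, Mrps24 had 25 and Mrpl42 had 27, while Mrps18a and Mrps2 had 34 each. The Mrpl12 protein forms the stalk and also binds the mitochondrial RNA polymerase, and its peak lay over the end of the neighbouring gene Hgs. Mrps12, the decoding-centre protein, had 35 at a start shared with Sars2. The plot of promoter scores shows that the lowest scores were not kept to 1 subunit.

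Among the 31 genes the median of the highest promoter score was 49 (exact 95% interval 43 to 62, quartiles 41.5 and 67.5), against 52 (52 to 54, quartiles 39 and 74) over all 5470 genes with such a peak. The family's median thus lay in the middle range of the scores. The median was 57 over the 19 Mrpl genes (45 to 74) and 43 over the 12 Mrps genes (34 to 59), and these intervals overlap.

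**Figure D1:**
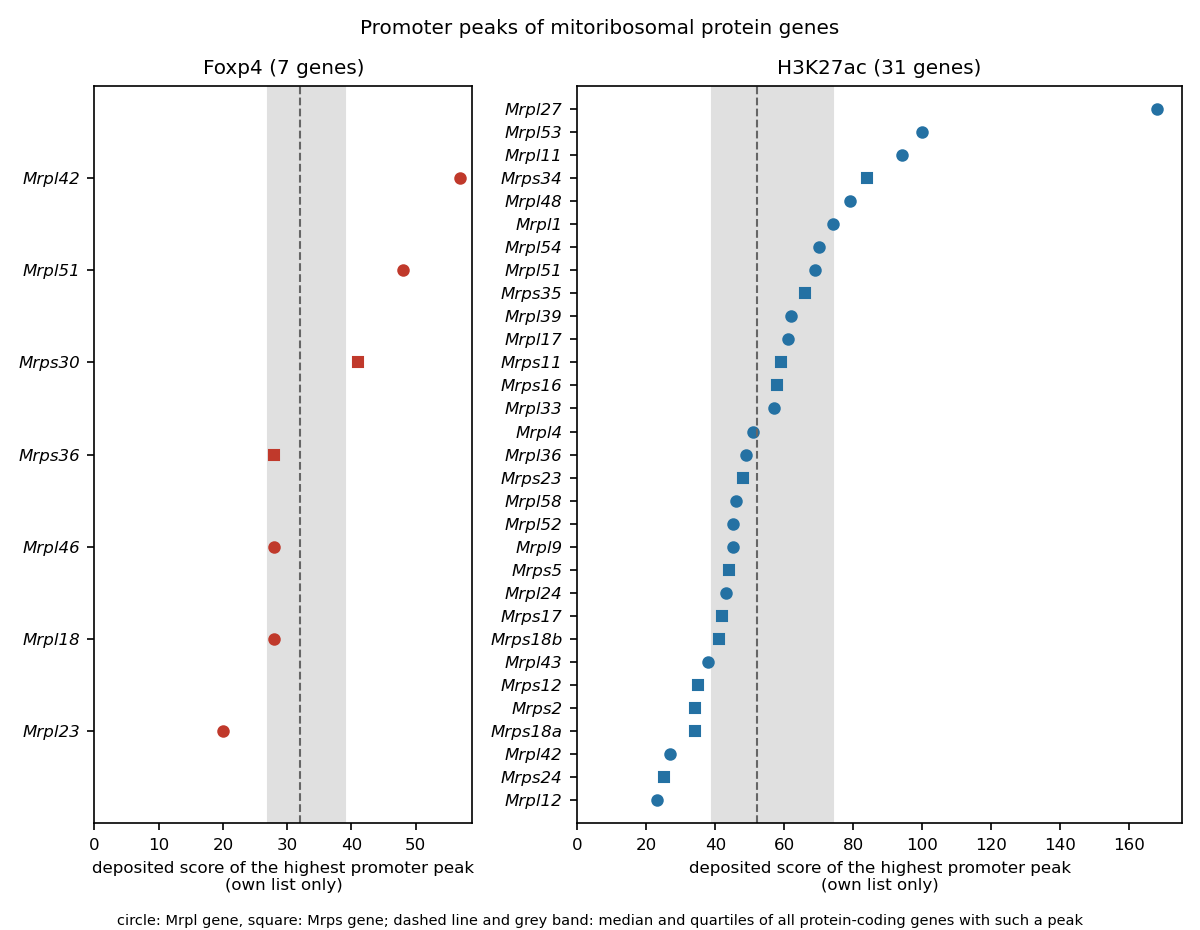
Deposited score of the highest promoter peak (x axis, no unit, comparable only within a panel) of each mitoribosomal protein gene (y axis) in the Foxp4 list (left) and the H3K27ac list (right), with circles for Mrpl and squares for Mrps genes. The dashed line and grey band are the median and quartiles of all protein-coding genes with such a peak. Mrpl27 stands alone at 168 in the H3K27ac panel, and most of the other genes lie within or near the band.

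The promoters of the 3 most strongly marked genes are printed here because they carry the highest H3K27ac of the family. Each is 250 bases before and 50 bases from the TSS on, from RefSeq on GRCm38.p6 (the assembly of mm10), written 5′ to 3′ on the strand of the gene. Capitals mark matches to the short motifs described further on, here the Ets motif of GABPA (CCGGAAG or, on the other strand, CTTCCGG). The windows are chr11:94653541-94653840 on the plus strand for Mrpl27, chr6:83108858-83109157 on the plus strand for Mrpl53 and chr19:4962056-4962355 on the plus strand for Mrpl11.
Mrpl27: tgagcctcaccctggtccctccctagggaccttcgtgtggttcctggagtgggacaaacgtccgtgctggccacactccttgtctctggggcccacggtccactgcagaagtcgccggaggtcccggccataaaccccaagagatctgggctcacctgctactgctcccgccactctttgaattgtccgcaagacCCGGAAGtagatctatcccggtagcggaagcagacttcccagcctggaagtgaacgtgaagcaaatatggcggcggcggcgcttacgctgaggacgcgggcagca
Mrpl53: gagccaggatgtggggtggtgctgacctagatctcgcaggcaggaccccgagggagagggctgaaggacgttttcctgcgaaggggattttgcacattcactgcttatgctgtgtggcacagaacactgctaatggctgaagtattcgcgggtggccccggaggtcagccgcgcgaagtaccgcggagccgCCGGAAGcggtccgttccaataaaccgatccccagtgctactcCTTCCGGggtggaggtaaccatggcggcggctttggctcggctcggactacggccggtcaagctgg
Mrpl11: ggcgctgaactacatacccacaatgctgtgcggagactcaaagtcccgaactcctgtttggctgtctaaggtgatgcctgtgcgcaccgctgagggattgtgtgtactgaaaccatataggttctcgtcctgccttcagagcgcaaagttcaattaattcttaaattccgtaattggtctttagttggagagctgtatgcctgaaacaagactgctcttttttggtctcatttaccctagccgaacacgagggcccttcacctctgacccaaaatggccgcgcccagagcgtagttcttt
The Mrpl27 window has 1 match, which begins at position -55 from the TSS, and the Mrpl53 window has 2, at -59 on the gene's strand and at -16 on the other strand. The Mrpl11 window, with a G+C content of 49.3%, holds none of the 6 motifs searched.

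Most H3K27ac peaks of the family were promoter peaks. Most of these were centred downstream of the TSS, as were most promoter peaks of the whole list. Of its 49 H3K27ac peaks, 33 were promoter peaks (67.3%), against 36.5% of all peaks in the list. In 28 of the 33 the centre was downstream of the TSS (84.8%, 68.1 to 94.9%), against 71.1% of all H3K27ac promoter peaks, a share inside the interval. The median position was 233 bp, against 255 bp. A total of 22 covered the TSS itself (66.7%, 48.2 to 82.0%), against 41.3%. The median width was 797 bp (630 to 928) in the family and 660 bp (647 to 672) over all H3K27ac promoter peaks.

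Mrpl36 and Mrps18a had peaks centred 4 and 6 bp from the TSS. Mrps24 and Mrpl42 had the most downstream ones, at 564 and 546 bp, and both scored low. Mrpl48 had 3 promoter peaks with scores of 79, 59 and 51, each at a separate annotated start. Mrpl4, Mrpl9, Mrpl17, Mrpl24, Mrpl33, Mrpl36, Mrpl43, Mrpl52, Mrpl58, Mrps5, Mrps11, Mrps16, Mrps17, Mrps18b and Mrps23 made up the middle of the score order, between 38 and 61. Mrpl58 encodes a peptidyl-tRNA hydrolase that rescues stalled mitochondrial ribosomes, and it had 46.

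**Figure D2:**
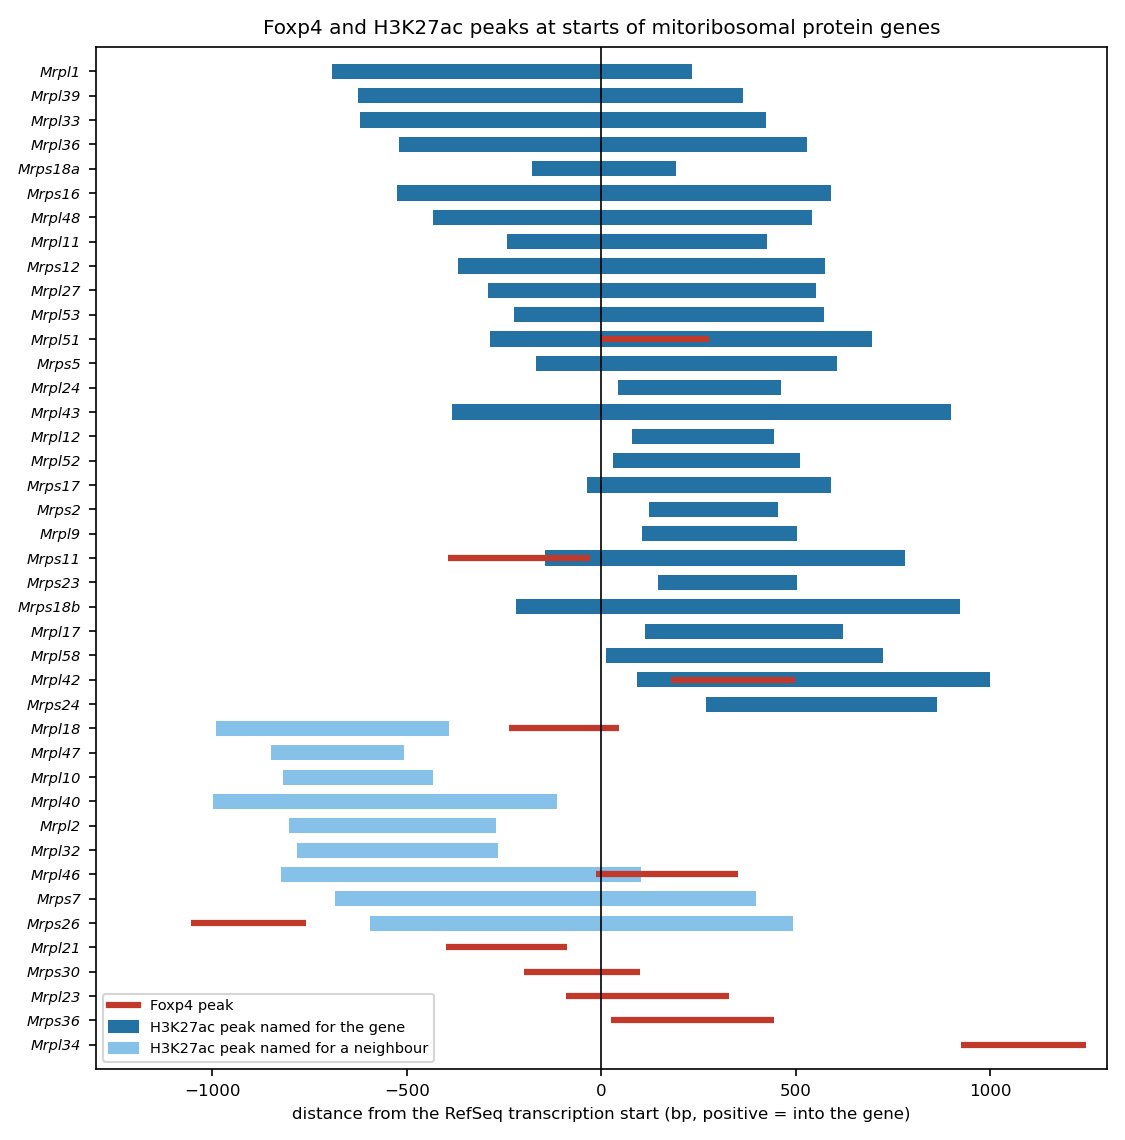
Extent of each peak (x axis, bp from the RefSeq TSS, positive into the gene) over the starts of 41 mitoribosomal protein genes (y axis), with Foxp4 peaks in red, H3K27ac peaks named for the gene in dark blue and H3K27ac peaks named for a neighbour in light blue. H3K27ac peaks of a gene's own name reach mostly downstream of the start, and those named for a neighbour lie mostly upstream. Peaks are named for the nearest TSS, so the upstream side of peaks named for a head-to-head partner follows from the naming.

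Starts shared with a neighbouring gene were frequent in the family, and the deposited table names a peak there for only 1 of the pair. Of the 69 members with a RefSeq promoter window, 24 had a gene on the opposite strand starting within 1000 bp upstream (34.8%, 23.7 to 47.2%), against 8.65% of 16853 protein-coding genes. Mrpl46 and Mrps11, proteins of different subunits, start 42 bp apart and form the only such pair within the family. Some partners are other mitochondrial genes. Twnk, the helicase of the mitochondrial genome, starts 116 bp from Mrpl43. Sars2, the mitochondrial seryl-tRNA synthetase, starts 147 bp from Mrps12, and Ndufb5, a subunit of respiratory complex I, 308 bp from Mrpl47. Others, such as Tcp1, Psma2 and Hira, have other functions, and the partners were not counted by function.

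When any peak that reached within 1000 bp of the RefSeq TSS by its edge was counted, whatever gene it was named for, H3K27ac was present at 36 of 69 members (52.2%, 39.8 to 64.3%), against 30.7% of protein-coding genes (5169 of 16853). In 9 members the peak bore a neighbour's name. The start of Mrpl18 was marked under Tcp1, a chaperonin subunit, with 101, that of Mrps7 under Gga3 with 75, that of Mrpl32 under the proteasome gene Psma2 with 66, and that of Mrpl40 under the histone chaperone gene Hira with 65. Mrpl46 was marked under Mrps11 with 59, Mrps26 under 4930473A02Rik with 51, Mrpl47 under Ndufb5 with 45, Mrpl10 under Lrrc46 with 34 and Mrpl2 under Klc4 with 28. In 7 of these 9 the name was that of the head-to-head partner. Only the peaks at Mrpl46, Mrps7 and Mrps26 covered the member's own TSS. With either count, 40 of the 78 members had H3K27ac at the start. No share over all protein-coding genes was taken for this combined count, and 9 of the 78 had no RefSeq window.

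Among members with a head-to-head partner, H3K27ac was present at 14 of 24 starts (58.3%, 36.6 to 77.9%), against 60.2% of all protein-coding genes with such a partner. Among members without one it was present at 22 of 45 (48.9%, 33.7 to 64.2%), against 27.9%. At shared starts the interval of the family is wide and includes the background share. At single starts it lies above 27.9%. By symbol, single starts with H3K27ac were 15 of 26 in Mrpl genes (57.7%, 36.9 to 76.65%). In Mrps genes they were 7 of 19 (36.8%, 16.3 to 61.6%), an interval that includes 27.9%.

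**Figure D3:**
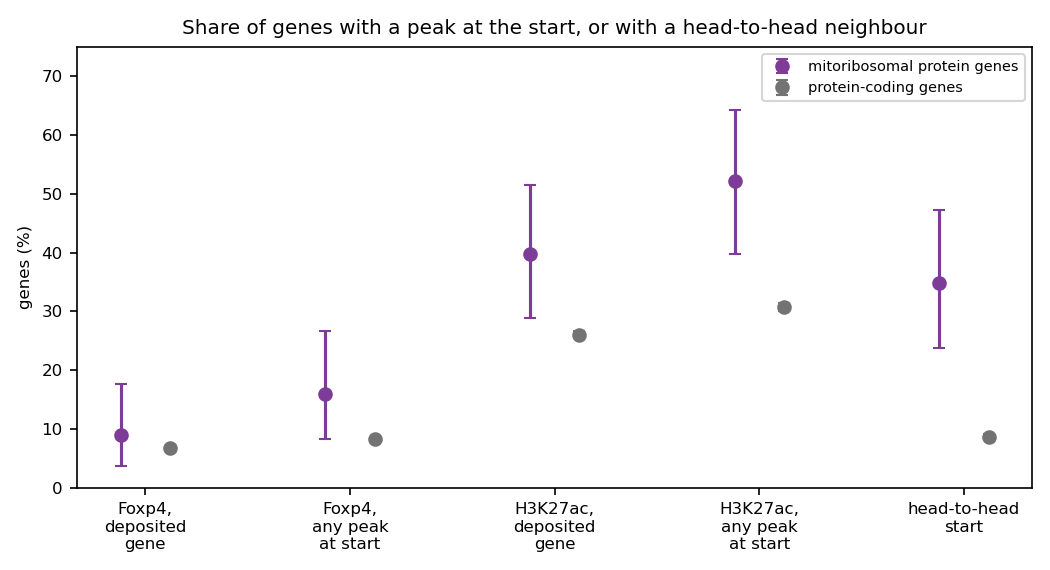
Share of genes (y axis, percent) with a Foxp4 peak or an H3K27ac peak at the start, by the deposited gene name or by any peak with an edge within 1000 bp of the RefSeq TSS, and with a head-to-head neighbour, for mitoribosomal protein genes (purple) and all protein-coding genes (grey), with exact 95% intervals as bars. The purple intervals lie above the grey points for H3K27ac and head-to-head starts. For Foxp4 by the deposited name the interval spans the grey point, and for any Foxp4 peak at the start it begins at 8.24%, next to the grey point at 8.26%.

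Away from promoters, Mrpl33 had the most H3K27ac. It had 7 peaks, of which the promoter peak scored 57 and the highest, at 134, lay 11109 bp upstream of the TSS (chr5:31602532-31603153). The others scored 65, 54, 46, 33 and 30, and 3 of them lay in an intron of the neighbouring gene Rbks. Mrpl45, whose protein holds the ribosome to the inner membrane at the tunnel exit, had no promoter peak but 2 upstream ones, with scores of 84 and 29. Mrps28 had a single peak of 23 in its own intron, and Mrps30 a single peak of 37 at 271308 bp from the TSS. In addition to a promoter peak, Mrps23 had peaks of 34 and 61 at 30329 and 31625 bp downstream of its TSS, and Mrps5 had one of 24 at 30047 bp. Mrpl1, Mrpl52 and Mrpl53 each had 1 further peak, with scores of 33, 34 and 26.

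For 20 members neither list held a peak under their name or at their start. These were Mrpl3, Mrpl15, Mrpl19, Mrpl20, Mrpl22, Mrpl28, Mrpl30, Mrpl41, Mrpl44, Mrpl49, Mrpl50, Mrpl55, Mrpl57, Mrps14, Mrps15, Mrps18c, Mrps21, Mrps22, Mrps27 and Mrps31, although the starts of Mrpl15 and Mrpl19 had no RefSeq window to inspect. They include core proteins such as Mrpl3, the counterpart of bacterial L3. Sequencing depth is unknown from peak lists, so no peak called means only that none reached the authors' threshold in these libraries. Without a peak under their own name in either list were 28 of 78 members (35.9%, 25.3 to 47.6%), against 46.3% of protein-coding genes. For the narrower count of 20 no share over all protein-coding genes was taken.

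Foxp4 lay at few mitoribosomal promoters. It had a promoter peak at 7 of 78 members, which is 8.97% (3.68 to 17.6%), against 6.77% of protein-coding genes (1424 of 21031), a background share that lies inside the interval. Foxp4 peaks at any distance were named for 27 members (34.6%, 24.2 to 46.2%), against 36.6% of protein-coding genes. Of the 7 genes, 5 were Mrpl and 2 were Mrps genes. By structural class, 4 of 20 large-subunit genes specific to mitochondria, 2 of 30 large-subunit genes with a bacterial counterpart, and none of the 17 and 9 genes in the small-subunit classes had one. The share of 20% in the first class had an interval of 5.73 to 43.7%, which includes 6.77%. A count of 0 allows a share of up to 19.5% and 33.6% in these 2 small classes.

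The highest Foxp4 promoter peak was at Mrpl42, with a score of 57 and its centre 339 bp inside the gene. Mrpl51 had 48 at 137 bp, and Mrps30 had 41 with the centre at -50 bp. Mrpl42 and Mrpl51 encode large-subunit proteins specific to mitochondria. Mrpl18, Mrpl46 and Mrps36 had 28 each, at -95, 170 and 235 bp. The Mrps36 protein is now known as part of the 2-oxoglutarate dehydrogenase complex, and its peak lay in a CpG island. Mrpl23, whose bacterial counterpart lines the exit of the peptide tunnel, had 20 at 33 bp, the lowest score in the Foxp4 list. Mrpl34, with 55 at 1085 bp, fell just outside the promoter window.

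The median over these 7 genes was 28 (20 to 57), against 32 (32 to 33) over all 1424 genes with a Foxp4 promoter peak, and lay inside the quartiles of that set (27 and 39). When any Foxp4 peak that reached within 1000 bp of the RefSeq TSS by its edge was counted, whatever its name, 11 of 69 members had one (15.9%, 8.24 to 26.7%), against 8.26% of protein-coding genes. The 4 added genes were Mrpl34, whose own peak has its nearest edge at 925 bp, Mrpl21 (27, named for Ighmbp2), Mrps11 (28, named for Mrpl46) and Mrps26 (27, named for 4930473A02Rik). The 1 peak between Mrpl46 and Mrps11 counts for both genes.

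Only Mrpl42 and Mrpl51 had a promoter peak of both kinds, which is 2 of 78 members (2.56%, 0.312 to 8.96%), against 3.70% of protein-coding genes. With peaks at any distance, 11 of 78 members were named in both lists (14.1%, 7.26 to 23.8%). The share over protein-coding genes was higher, at 20.4% (4287 of 21031), but lies inside that interval. Among the 31 members with an H3K27ac promoter peak, 2 also had a Foxp4 promoter peak (6.45%, 0.791 to 21.4%), against 14.2% of the 5470 protein-coding genes with one (779 genes). The interval includes the background share.

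The promoters of both genes, and that of Mrpl46 at the start it shares with Mrps11, are printed because Foxp4 and H3K27ac peaks overlap at or just downstream of these starts. The Mrpl46 window was chosen after its values were seen. Capitals again mark motif matches: the YY1 motif (AAGATGGC), the Ets motif of GABPA (CCGGAAG) and the GC box of Sp1 (GGGCGG or, on the other strand, CCGCCC). The windows are chr10:95501900-95502199 on the minus strand for Mrpl42, chr6:125191950-125192249 on the plus strand for Mrpl51 and chr7:78783040-78783339 on the minus strand for Mrpl46.
Mrpl42: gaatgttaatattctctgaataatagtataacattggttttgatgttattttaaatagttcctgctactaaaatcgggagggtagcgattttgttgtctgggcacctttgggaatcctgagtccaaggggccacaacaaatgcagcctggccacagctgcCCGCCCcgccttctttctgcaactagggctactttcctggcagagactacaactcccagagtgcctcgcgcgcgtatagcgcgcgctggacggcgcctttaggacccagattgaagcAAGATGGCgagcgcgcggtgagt
Mrpl51: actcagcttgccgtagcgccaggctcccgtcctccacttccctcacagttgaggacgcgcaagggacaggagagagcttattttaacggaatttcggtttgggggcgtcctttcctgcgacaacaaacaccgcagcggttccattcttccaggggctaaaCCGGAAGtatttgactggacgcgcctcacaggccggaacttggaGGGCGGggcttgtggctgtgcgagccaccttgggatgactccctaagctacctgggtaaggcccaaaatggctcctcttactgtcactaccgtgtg
Mrpl46: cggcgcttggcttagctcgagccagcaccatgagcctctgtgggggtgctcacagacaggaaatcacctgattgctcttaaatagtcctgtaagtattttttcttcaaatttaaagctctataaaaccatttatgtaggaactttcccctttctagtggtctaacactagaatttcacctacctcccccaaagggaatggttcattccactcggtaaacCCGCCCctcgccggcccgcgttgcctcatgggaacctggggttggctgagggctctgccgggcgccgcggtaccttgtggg
In Mrpl42 the YY1 match begins 27 bases after the TSS and the GC box at -90. In Mrpl51 the Ets match begins at -90 and the GC box at -46, and in Mrpl46 a GC box begins at -31. None of the 3 windows holds the forkhead motif. Both peaks of Mrpl42 lie beyond its printed window, on the downstream side.

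Of the 37 Foxp4 peaks of the family, 6 overlapped an H3K27ac peak by at least 1 bp (16.2%, 6.19 to 32.0%), against 8.21% of all Foxp4 peaks, a share inside the interval. Among peaks without a recurrent score, as defined further on, it was 22.2% (6.41 to 47.6%), against 19.2%. Among promoter peaks it was 3 of 7 in the family, against 42.3% of all Foxp4 promoter peaks, and among the others 3 of 30 (10%, 2.11 to 26.5%), against 4.64%. At Mrpl42 (chr10:95501451-95501769) and Mrpl51 (chr6:125192196-125192478) the Foxp4 peak lay wholly inside the H3K27ac peak, which scored 27 and 69. At Mrpl46 (chr7:78782737-78783102) it shared 117 bp with the H3K27ac peak named for Mrps11. The Mrpl45 Foxp4 peak scored 38 and lay wholly inside the H3K27ac peak of 84 that is 5584 bp upstream of the TSS (chr11:97309610-97310233).

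The remaining overlaps were at Mrpl52, where a Foxp4 peak of 21 shared 181 bp with an H3K27ac peak of 34, and at Mrps23, where a Foxp4 peak of 29 shared 152 bp with one of 34. The Mrpl18 peak just missed, with a gap of 156 bp to the H3K27ac peak named for Tcp1. The other promoter sites were far from any H3K27ac peak, with a gap of 12937 bp at Mrps36, 44623 bp at Mrpl23 and 271043 bp at Mrps30. Counted from the H3K27ac side, 6 of the 49 H3K27ac peaks of the family overlapped a Foxp4 peak (12.2%, 4.63 to 24.8%), against 7.91% of all H3K27ac peaks.

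Most Foxp4 peaks of the family were distal and intronic. The median distance to the TSS was 10140 bp (3240 to 22130), against 27280 bp over all Foxp4 peaks. By annotation 23 of 37 lay in introns (62.2%, 44.8 to 77.5%), against 43.5% of all Foxp4 peaks, and 8 of these 23 lay inside another gene (34.8%, 16.4 to 57.3%), against 28.4% of all intronic Foxp4 peaks. A repeat was annotated at 5 of 37 peaks (13.5%, 4.54 to 28.8%), against 32.0% of all Foxp4 peaks. Promoter peaks were 7 of 37 (18.9%, 7.96 to 35.2%), against 9.48%, a share inside the interval.

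Mrps6, the counterpart of bacterial S6, had the most Foxp4 peaks, with 4 at 13591, 42660, 49090 and 100973 bp downstream of its TSS. They scored 39, 22, 34 and 41, and none overlapped H3K27ac. Mrps25 had 3, with scores of 57, 28 and 27. Those of 57 and 27 lay in introns of the neighbouring gene Nr2c2. That of 28 lay within Mrps25 itself, 10431 bp from its TSS, and was annotated to the transcript end of Nr2c2. Mrpl13 had a peak of 57 in its own intron and one of 34 in an intron of the collagen gene Col14a1. Mrpl37 had peaks of 35 and 27, both in introns of Ssbp3. Mrps18a had peaks of 24 and 22, Mrps23 of 29 and 28, and Mrpl46 a second one of 27 in addition to its promoter peak.

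The remaining members had 1 Foxp4 peak each. Those in introns of their own gene were at Mrps28 (41), Mrpl14 (34), Mrpl48 (34), Mrps10 (28), Mrpl35 (27), Mrps33 (27) and Mrps9 (23). Those in introns of another gene were at Mrps24 (41, in Ankrd36), Mrpl38 (27, in Fbf1) and Mrpl16 (21, in Stx3). The Mrpl1 peak (23) was intergenic, 2006 bp from the H3K27ac peak of that gene. The median score of all 37 peaks was 28 (27 to 34), against 27 over the whole list.

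Many Foxp4 peaks share a handful of identical scores (21, 27, 34, 41, 49 and 57), which were each held by at least 100 peaks and by over 3 times as many as either neighbouring value. In the family 19 of 37 peaks had one (51.4%, 34.4 to 68.1%), against 73.1% of all Foxp4 peaks. Mrpl42 and Mrps30 were the 2 of 7 promoter peaks that did. Whether such peaks differ in quality was not tested.

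**Figure D4:**
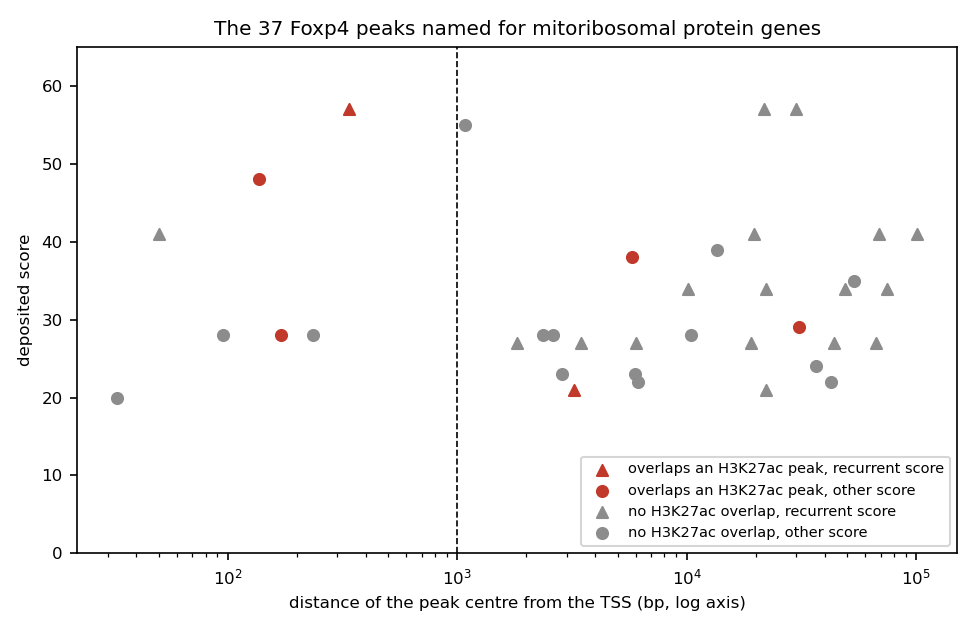
Deposited score (y axis, no unit) of each of the 37 Foxp4 peaks against the distance of its centre from the TSS (x axis, bp, log scale). Red points overlap an H3K27ac peak, triangles have a recurrent score and the dashed line marks 1000 bp. The 7 promoter peaks lie left of the line, and peaks of 57 occur on either side of it.

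Motifs of YY1, GABPA and NRF1 were more frequent in these promoters than in all windows, though each was absent from most family windows. A search of both strands covered 75 windows of 300 bases for 69 members and 20488 windows of all genes in the RefSeq table. The YY1 motif AAGATGGC was in 12 of 75 windows (16%, 8.55 to 26.3%), against 3.11% of all windows. The GABPA motif CCGGAAG was in 26 (34.7%, 24.0 to 46.5%), against 11.9%, and the NRF1 motif GCGCATGC in 8 (10.7%, 4.72 to 19.9%), against 3.64%. The Sp1 motif GGGCGG was in 39 (52%, 40.1 to 63.7%), against 47.6%, and the E-box CACGTG in 7 (9.33%, 3.84 to 18.3%), against 8.03%. Windows were counted singly, although Mrpl2 has 3 overlapping ones, Mrpl48 has 4 and Mrps16 has 2. All 3 Mrpl2 windows hold the E-box and the Sp1 motif, and the intervals treat them as separate. None of these motifs contains another. A match is a run of letters and not a measured binding site.

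YY1, GABPA and NRF1 (nuclear respiratory factor 1) are known activators of nuclear genes for mitochondrial proteins. The YY1 motif was in the windows of Mrpl32, Mrpl35, Mrpl36, Mrpl37, Mrpl42, Mrpl49, Mrps7, Mrps11, Mrps12, Mrps18a, Mrps24 and Mrps27. The NRF1 motif was in those of Mrpl9, Mrpl10, Mrpl17, Mrpl22, Mrpl32, Mrpl33, Mrpl39 and Mrps18b. Windows were also split by whether an H3K27ac peak reached within 1000 bp of the TSS by its edge. Such a peak need not overlap the window. Among windows with one, YY1 was in 8 of 42 (19.05%, 8.60 to 34.1%), against 5.13% of all such windows, and GABPA in 16 of 42 (38.1%, 23.6 to 54.4%), against 21.2%. Among windows without H3K27ac there, GABPA was in 10 of 33 (30.3%, 15.6 to 48.7%), against 7.84%, and YY1 in 4 of 33 (12.1%, 3.40 to 28.2%), against 2.24%. NRF1 was in 7 of the 42 windows with H3K27ac (16.7%, 6.97 to 31.4%), against 6.01%, and in 1 of the 33 without (3.03%, 0.0767 to 15.8%), against 2.60%, which lies inside the interval. The median window had 21 CpG dinucleotides in the family and 14 over all windows, and a G+C content of 58.7% in the family and 57.0% over all.

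The forkhead motif TGTTTAC was in 2 of 75 windows (2.67%, 0.325 to 9.30%), those of Mrpl40 and Mrpl44, against 2.90% of all windows. It was in none of the 11 windows with a Foxp4 peak that reached within 1000 bp of the TSS by its edge. That allows a share of up to 28.5%, against 3.13% of all such windows. The peak covered the TSS in only 5 of these members. The peaks of Mrpl34, Mrpl42 and Mrps26 lay wholly outside the searched window, so the sequence under them was not searched.

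**Figure D5:**
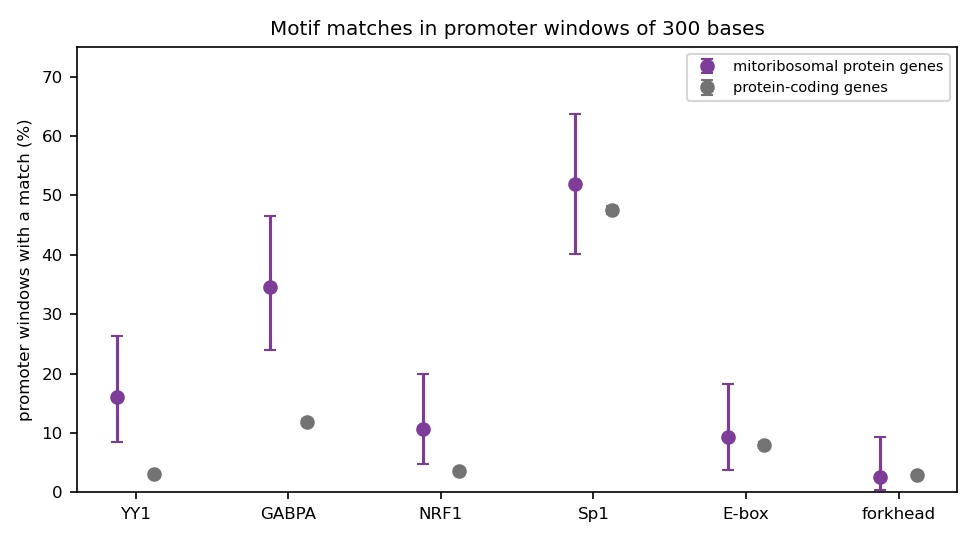
Share of promoter windows of 300 bases (y axis, percent) that hold each motif (x axis) on either strand, for mitoribosomal protein genes (purple) and all windows of the RefSeq table (grey), with exact 95% intervals as bars. The purple intervals lie above the grey points for YY1, GABPA and NRF1, and include them for Sp1, the E-box and the forkhead motif.

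Genes that work with the mitoribosome were counted by the same rule, from lists named by function, and are read against 26.0% of protein-coding genes for H3K27ac and 6.77% for Foxp4. Of 5 mitoribosomal proteins with other symbols, 4 had an H3K27ac promoter peak (80%, 28.4 to 99.5%): Dap3 (91), Ptcd3 (55), Gadd45gip1 (54) and Chchd1 (39), and Dap3 also had a Foxp4 promoter peak (35). Of 16 mitochondrial translation factors, 8 had H3K27ac (50%, 24.7 to 75.3%), led by Tufm (87), the elongation factor that delivers tRNAs, Oxa1l (66), which inserts new proteins into the membrane, and Pdf (59), the peptide deformylase. Foxp4 promoter peaks were at Tsfm (41) and Mtif3 (34), which is 12.5% (1.55 to 38.4%). Of 25 assembly and rRNA-modification genes, 5 had H3K27ac, led by Malsu1 (127), Mtg2 (39) and Rcc1l (37), and none had a Foxp4 promoter peak. That is 20% (6.83 to 40.7%), against 39.7% of the mitoribosomal protein genes and 26.0% of protein-coding genes, and the interval includes both.

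Of 17 mitochondrial aminoacyl-tRNA synthetases, 5 had an H3K27ac promoter peak (29.4%, 10.3 to 56.0%), led by Fars2 (74), Wars2 (58) and Ears2 (56), a share near the background. Foxp4 promoter peaks were at Vars2 (32) and Fars2 (20), which is 11.8% (1.46 to 36.4%). Of 8 genes that copy or transcribe the mitochondrial genome, Ssbp1 (82) and Polg (36) had H3K27ac, and Polrmt (30), the mitochondrial RNA polymerase, and Tfam (23), its main activator, had Foxp4. Each of these counts is 25% (3.19 to 65.1%). Of 6 regulators of these genes, 4 had H3K27ac (66.7%, 22.3 to 95.7%), namely Gabpb1 (126), Nrf1 (103), Yy1 (72) and Myc (45), and Myc alone had a Foxp4 promoter peak (22), which is 16.7% (0.421 to 64.1%). With so few genes a list, most of these intervals include the background share.

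The label of the cells was checked against marker genes in the H3K27ac list. A promoter peak was at 5 of 7 adipocyte genes (Pparg, Cebpa, Plin1, Lipe and Cidec, with scores between 50 and 102) but at 0 of 7 beige and brown fat genes. Neither list held a peak for Adrb3, Dio2, Prdm16 or the uncoupling protein gene Ucp1. Elovl3 and Cox8b had H3K27ac peaks, and Elovl3 and Cidea had Foxp4 peaks, whose centres were outside the promoter window. By the edge rule 1 of 4 of these genes with a RefSeq window had H3K27ac at the start. Among other cell types, a promoter peak was at 2 of 4 preadipocyte genes (Ly6a 55 and Pdgfra 39), 1 of 4 macrophage genes (Cd68 33), 0 of 3 endothelial and 0 of 3 skeletal muscle genes. At any distance, H3K27ac was at 6 of 7 adipocyte, 2 of 7 beige and brown fat, 4 of 4 preadipocyte, 2 of 4 macrophage, 3 of 3 endothelial and 0 of 3 skeletal muscle genes, against 37.5% of protein-coding genes. Which cells of the culture gave the mitoribosomal peaks was not tested.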

How the data were processed

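ChIP-seq peak lists of 1 Foxp4 and 1 H3K27ac library were analysed. The submitters' processing notes name mm10, Bowtie2, SAMtools, Picard, MACS2 and deepTools 3.3.0 but no settings. Per the file headers, the authors annotated each narrowPeak list with HOMER, which gives the nearest TSS and the signed distance of the peak centre from it. The deposited score is a whole number whose definition the files do not state. How the input entered peak calling is not given in the sources used here. A deeper library would yield more peaks, and repeats or shared starts can shift a peak's gene name.

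Chromosomes 1 to 19, X and Y were kept; 1 mitochondrial peak and 6 pseudogene symbols were left out. A promoter peak had its centre within 1000 bp of the deposited TSS. Shares were set beside 21031 protein-coding genes (RefSeq, GRCm38.p6) or the whole list, and all 153 entries of the gene lists matched. Intervals of medians come from order statistics. Windows and motifs came from the RefSeq promoter table. Named genes were members with a Foxp4 peak, the 10 highest and 5 lowest H3K27ac promoter scores, members without peaks or with distal H3K27ac, and the leading genes of related lists; others were named after their values were seen. Members and lists were chosen with earlier results of these data known. Alternatives changed the window, gene assignment, score threshold, denominator, overlap rule and recurrent scores. The counting steps were tested on simulated data. Python 3.11.15 was used with scipy 1.17.1, pandas 2.3.3, numpy 2.4.6 and matplotlib 3.10.9.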

Additional observations from a re-analysis of the deposited data

How the results depend on the processing

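Of 24 alternatives run over 5 results, 21 moved the value by less than its counting interval. The exceptions all concern the share of members with an H3K27ac promoter peak, 39.7% by the deposited distance. It was 20.5% (12.2 to 31.2%) by the authors' promoter-TSS class, against 12.6% of protein-coding genes, and 62% (47.2 to 75.4%) with only genes named in a list as the denominator, against 48.4%; these intervals include the background. It was 52.2% (39.8 to 64.3%) with any peak over the RefSeq TSS, against 30.7%. With a peak required to cover the TSS base, an alternative chosen after seeing the data, it was 29.0% (18.7 to 41.2%), against 13.3%. The Foxp4 promoter share, 8.97%, ranged from 6.41% without recurrent scores (2.11 to 14.3%), against 3.87% of protein-coding genes, to 15.9% with any peak over the RefSeq TSS, against 8.26%. Within 500 bp it was 8.97%, against 4.57%, and with the TSS base covered 7.25% (2.40 to 16.1%), against 2.74%. The overlap share, 16.2% against 8.21% of all Foxp4 peaks, ranged from 10.8% with at least 50% of the Foxp4 peak covered, against 5.77%, to 22.2% without recurrent scores, against 19.2%. No paired analysis was possible because each target has 1 library. Limits are the missing replicates, the unknown depth and a score of unstated meaning. RefSeq promoter windows covered 69 of 78 members, and the sequences under the peaks were not analysed here.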
